A study of Mus musculus with 18 samples.

Results

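The mRNAs of the cytosolic ribosomal proteins were followed through meiotic maturation in mouse oocytes lacking Lsm14b. Members were the protein-coding genes of the GENCODE vM21 annotation whose symbol is Rpl, Rps or Rplp followed by a digit, or Rpsa. The ribosomal protein S6 kinases, Rps19bp1 and predicted or pseudogene entries were left out. The rule named 85 genes, of which 33 belong to the small subunit, 49 to the large subunit and 3 to its stalk. The deposited table of 27874 genes held 84 of them, and Rpl3l was not analysed here. Of these 84, 76 reached 1 FPKM (fragments per kilobase of exon, scaled to sequencing depth) in at least 3 libraries and were tested, among 10320 genes tested in all.

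Oocytes came from Lsm14b-/- mice (KO) and from wild-type mice (WT). Collection was at 3 points of meiosis: germinal vesicle (GV), metaphase I (MI), and 14 h after hCG, the hormone that triggers ovulation. That last point is named MII in both genotypes here, as in the labels, which do not record how far the individual KO oocytes had progressed. Each of the 6 groups had 3 libraries, each made from a pool of 15 oocytes by oligo(dT)-primed Smart-seq2. How the Lsm14b deletion was made, the strain and the age of the mice are not stated in the labels, which also do not say if the pools of a group came from separate animals, so p-values measure the spread between these pools. In pools, fewer oocytes holding an mRNA and less of it per oocyte cannot be told apart, and with oligo(dT) priming a level may also depend on the poly(A) tail.

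A ribosome joins a small subunit, which decodes the mRNA, to a large subunit, which forms the peptide bond, and the stalk of acidic proteins on the large subunit recruits the elongation factors. The growing oocyte builds up ribosomes and mRNAs, transcription stops in the full-grown oocyte, and part of the maternal mRNA is removed as meiosis proceeds. Ribosomal protein mRNAs typically begin with a terminal oligopyrimidine (TOP) tract, a C followed by further C and T letters at the cap, through which mTOR signalling and LARP1 govern their translation and stability in somatic mammalian cells. LSM14B binds RNA and sits in the ribonucleoprotein granules of the oocyte cytoplasm.

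Pyrimidine runs were looked for around RefSeq transcription starts (build GRCm38.p6), from 30 bases before to 50 bases after the start on the gene's strand only. A run was an unbroken stretch of at least 8 letters that are C or T. It could lie anywhere in that window and not only at the cap, so a run is not in itself a TOP tract. Of the 84 members, 64 were matched to 75 promoters, and 52 of these (69.3%) held such a run, against 9527 of 32851 promoters of all genes (29.0%). The median longest run was 10 letters in the members' promoters and 6 in all promoters. The 11 windows of 30 bases shown here belong to genes that the results turn on, and were picked to show promoters with and without a run of 8. Rpl7a, Rps9 and Rps13 were among the 6 largest falls in WT from GV to MII. Rps23, Rpl27a and Rpl11 were called higher in KO at GV, the last 2 with calls that were lost without KO GV replicate 2. Rpl5 differed between the genotypes in its decline, and Rpl13, Rps15a, Rps27l and Rps28 did not pass the test for a fall in WT. Capitals mark the longest run of C and T in the stretch searched, or the first where runs were equally long. These runs began at -22 (Rps27l) to 35 (Rps23) bases from the annotated start. In Rps27l an unmarked run of the same 9 letters in length follows the marked one. The run of Rps23 ended at the edge of the stretch searched, so its full length may be greater.
Rpl7a (chr2:26910789-26910818, + strand): acaaTTCCCTCTTCTTTCTTTCTCCagcag
Rps9 (chr7:3704025-3704054, + strand): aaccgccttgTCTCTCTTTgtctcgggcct
Rps13 (chr7:116334161-116334190, - strand): tgagtggcgtcaCTTCCTgtgcggcttgat
Rps23 (chr13:90923142-90923171, + strand): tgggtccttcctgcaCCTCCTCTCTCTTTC
Rpl27a (chr7:109519186-109519215, + strand): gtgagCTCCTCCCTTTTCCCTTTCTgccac
Rpl11 (chr4:136053357-136053386, - strand): cggaagTCTCCCTCTCTCTTCCTgttctcc
Rpl5 (chr5:107900498-107900527, + strand): cctacagccaCTCTTTCTCacgtcgcttgc
Rpl13 (chr8:123102324-123102353, + strand): cgtgacgtcaCTTCCCTTTCgcctgatttt
Rps15a (chr7:118116143-118116172, - strand): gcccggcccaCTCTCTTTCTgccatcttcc
Rps27l (chr9:66946054-66946083, + strand): cccgcctccaCTCCTCTCCactcctccccg
Rps28 (chr17:33824566-33824595, - strand): ctgtcccgaggaTTCCTgggtaccgcgtgc
The longest run was 6 letters in Rps13, which fell, and 5 letters in Rps28. Rps28 did not pass the test, although all its WT MII libraries lay below all its WT GV libraries.

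Gene-assigned reads numbered 14227763 to 17183680 per library, so that for a gene 1 kb long a single read equalled 0.0582 to 0.0703 FPKM. Lsm14b itself stood at 0 to 0.234 FPKM in the 9 KO libraries and at 2.04 to 11.2 FPKM in the 9 WT libraries. All 12 oocyte markers reached 1 FPKM, while 5 of 14 markers of cumulus and granulosa cells did so in any library. Foxl2 and Amh were at 0 in 17 and 15 libraries, but Cyp19a1 was at 1.89 to 6.09 FPKM in all. At GV, Fshr stood at 1.18, 1.95 and 1.30 FPKM in KO and 0.317, 0.293 and 0.169 in WT. Nr5a2 stood at 2.70, 4.80 and 2.08 FPKM in KO GV and 1.07, 1.17 and 1.37 in WT GV. The genotypes overlapped at GV for Cyp19a1, Kitl and Inha. KO GV replicate 2 stood apart. There 73 of the 76 tested members had the highest level of their group, against 53.8% of all genes, and the median member lay 1.43 above the mean of the other 2 replicates on the log2 scale, against 0.28 for all genes. The summed cumulus and granulosa markers were 12.5 FPKM in that library, 9.97 and 10.1 FPKM in KO GV replicates 1 and 3, and 5.38 to 9.25 FPKM in WT GV. Their part in the results at GV was not tested. Counts of members and calls of named members between the genotypes at GV are given with and without KO GV replicate 2. Splits of the members by sequence features, and genes that are not members, are given with that library only.

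**Figure D1:**
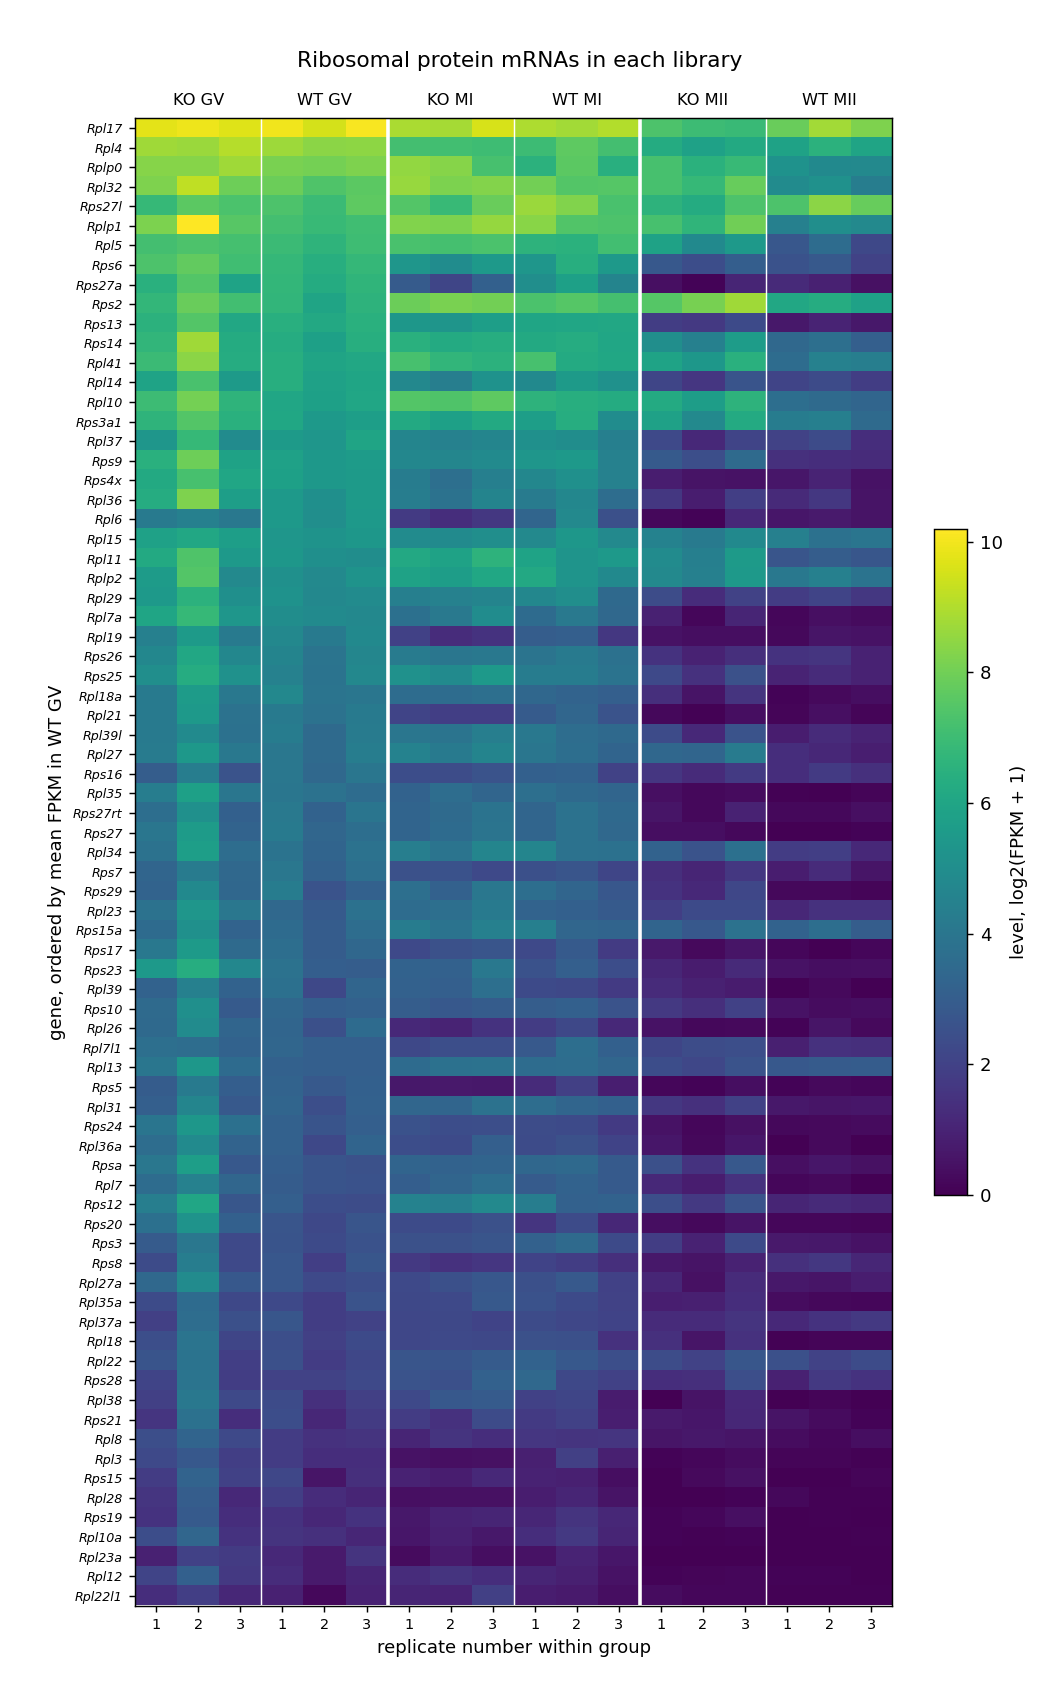
Level of each of the 76 tested ribosomal protein genes in each of the 18 libraries, as colour on the log2(FPKM + 1) scale. Rows are ordered by the mean in WT GV and columns by group and replicate. Levels were low in the 6 MII libraries for most genes, and KO GV replicate 2 was the highest of the 3 KO GV libraries for 73 of the 76 genes.

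In the GV oocyte, levels per length differed widely between members. In WT GV, the mean over the 3 libraries ran from 0 to 945 FPKM, with a median of 9.50 over the 84 members, and 5 genes (Rpl17, Rpl4, Rplp0, Rpl32 and Rps27l) held 53.2% of the members' summed FPKM. Rpl17, a large-subunit protein at the rim of the exit tunnel, was the highest, at 885, 975 and 829 FPKM in KO GV and 1001, 741 and 1092 FPKM in WT GV. Rpl4, which lines the exit tunnel, stood at 429, 403 and 533 FPKM in KO GV and 416, 345 and 356 FPKM in WT GV. The 2 genotypes overlapped for Rpl17 and for Rpl4. The order of the 76 tested members was much the same in the genotypes, with a Spearman correlation across genes of 0.94 at GV, 0.93 at MI and 0.90 at MII, which is a description over genes that share libraries.

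Several subunits that every ribosome carries gave almost no reads. Rpl13a, a large-subunit protein, did not exceed 0.0561 FPKM in any library, and Rpl24, a large-subunit protein at the subunit interface, was listed at 0 in 17 libraries and at 0.119 FPKM in KO MII replicate 1. Rpl30 and Rps18 were also below 1 FPKM in all WT libraries other than WT GV replicate 1, where Rps18 stood at 1.06 FPKM. These genes, Rpl10l and Rpl36al were among the 8 members that were not tested. For the 8 untested members a median of 23.9% of their 50-base stretches also occurs in transcripts of other genes of the annotation, against 23.1% (0 to 91.1%) for the 76 tested members. How the authors' counting placed reads shared with such copies is not stated in the labels, so low and high levels of members with many copies are uncertain.

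In WT oocytes most ribosomal protein mRNAs fell between MI and MII. From GV to MII in WT, 68 of the 76 members fell and none rose, against 28.8% of all genes that fell and 28.9% that rose, by limma's moderated test on log2(FPKM + 1) with Benjamini-Hochberg adjustment over all 10320 genes (adjusted p under 0.05). The median log2 change was -2.39 for the members and 0.09 for all genes. In untransformed FPKM the median member was 17.1-fold lower at MII, and 47 members were at least 10-fold lower. The size of these ratios is uncertain near the floor, as 48 of the 84 members had a mean below 1 FPKM in WT MII. Members under 1 FPKM in all MII libraries, such as Rpl22l1, Rps15, Rpl28 and Rpl23a, entered the test through GV and MI libraries. Their falls are given as a description, and the same filter was used for all genes. From GV to MI in WT, 9 members fell and none rose, against 2.06% of all genes that fell and 2.75% that rose. That count was unstable, at 2 without WT MI replicate 1, 3 without WT GV replicate 1 or 3, 5 without WT MII replicate 3, 16 and 23 without KO GV replicates 3 and 2, and 24 with median-of-ratios scaling. From MI to MII, 64 fell and none rose, against 28.0% and 5.01% of all genes. Both subunits were represented: from GV to MII, 27 of 31 small-subunit genes and 39 of 42 large-subunit genes fell.

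The deepest falls reached members of both subunits. Rps13, a small-subunit protein, stood in KO at 91.7, 176 and 67.8 FPKM at GV, at 41.1, 38.8 and 51.5 at MI, and at 2.57, 2.27 and 3.95 at MII. The WT libraries stood at 86.2, 70.4 and 87.2 FPKM at GV, at 62.6, 64.9 and 68.1 at MI, and at 0.595, 0.994 and 0.571 at MII. Its level held within 1.5-fold up to MI in WT and then dropped, while no MII library of either genotype came near the GV or MI libraries. The log2 change from GV to MII was -5.58 in WT (SE 0.28, adjusted p = 4.1e-11) and -4.75 in KO (SE 0.28, adjusted p = 5.63e-10), by limma.

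Rps27a encodes ubiquitin fused to a small-subunit protein. In KO it stood at 86.7, 178 and 59.1 FPKM at GV, at 6.59, 3.36 and 7.77 at MI, and at 0.341, 0.0627 and 1.05 at MII. WT libraries stood at 107, 76.8 and 99.9 FPKM at GV, at 31.8, 54.3 and 23.1 at MI, and at 1.32, 0.894 and 0.374 at MII. The stages did not overlap within either genotype, and at MI all 3 KO libraries lay below all 3 WT libraries. The log2 change from GV to MII in WT was -5.70 (SE 0.39, adjusted p = 1.24e-09).

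Rpl6, a large-subunit protein, stood in KO at 17.5, 20.5 and 15.9 FPKM at GV, at 2.32, 1.54 and 2.14 at MI, and at 0.175, 0.0788 and 1.25 at MII. In WT it stood at 43.0, 32.0 and 44.4 FPKM at GV, at 9.06, 26.8 and 4.68 at MI, and at 0.548, 0.658 and 0.470 at MII. The KO libraries lay below the WT libraries at GV and at MI and overlapped them at MII. The log2 change from GV to MII in WT was -4.70 (SE 0.40, adjusted p = 2.04e-08). Rps4x, the X-linked small-subunit protein, Rpl7a, a large-subunit protein, and Rps9, a small-subunit protein, completed the 6 largest falls in WT on the log2(FPKM + 1) scale, with log2 changes of -4.88, -4.57 and -4.29. These 6 falls kept their direction and stayed past the threshold in all 27 alternative fits in which each could be fitted.

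Ribosomal protein mRNAs also fell in KO. From GV to MII in KO, 70 members fell and 1 rose, against 25.4% and 11.9% of all genes, with a median log2 change of -2.19 and a median level 10.9-fold lower at MII. The KO MII mean was below 1 FPKM in 37 of the 84 members. Here too, falls of members that entered the test through GV and MI libraries are a description. All 68 members that fell in WT fell in KO as well. From GV to MI, 35 members fell in KO and none rose, against 10.4% and 2.53% of all genes, with a median log2 change of -0.91, where the WT median was -0.28. From MI to MII, 45 fell and none rose, against 10% and 1.87% of all genes, with a median of -1.25, where the WT median was -2.16. Those medians moved with single libraries, to -0.49 in KO without KO GV replicate 2 and -1.22 without KO GV replicate 3, and in WT to -0.16 and -0.46 without WT GV replicates 1 and 2 and -0.14 without WT MI replicate 3. With median-of-ratios scaling they were -0.82 in KO and -0.60 in WT. Whether the change from GV to MI differed between the genotypes was not tested. The count from GV to MI was 13 when the fit held only the groups compared, and 26 to 43 when any 1 library was left out. The summed level of the 84 members shows the same course: in KO the sums were 5863 ± 2624 FPKM (GV), 3449 ± 325 FPKM (MI) and 1531 ± 443 FPKM (MII), and in WT 3685 ± 559.6 FPKM (GV), 2838 ± 428 FPKM (MI) and 952 ± 255 FPKM (MII) (SD, n = 3 libraries each).

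**Figure D2:**
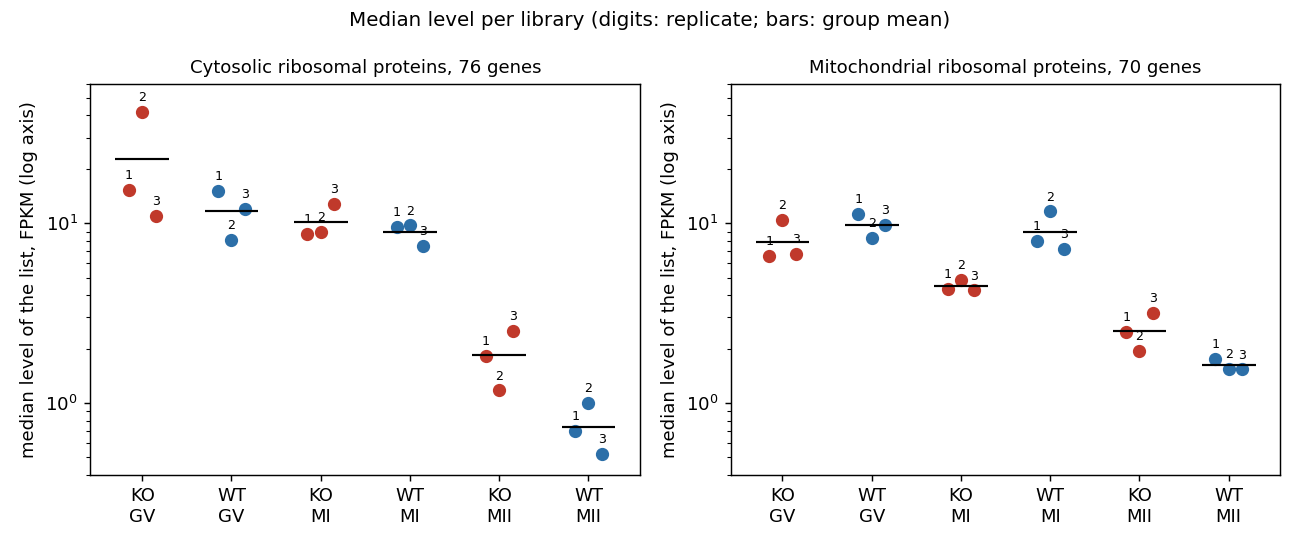
Median level per library, in FPKM on a log axis, of the 76 tested cytosolic (left) and the 70 tested mitochondrial ribosomal protein genes (right). Red points are KO and blue points WT libraries, digits give the replicate and bars the group mean. The cytosolic median lay at 11.1 to 41.9 FPKM in KO GV, 8.11 to 15.2 FPKM in WT GV, 1.18 to 2.52 FPKM in KO MII and 0.522 to 1.00 FPKM in WT MII.

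The members that did not pass the test for a fall in WT from GV to MII were Rps28, Rpl13, Rps27l, Rps2, Rplp2, Rpl22, Rpl37a and Rps15a. In Rplp2, Rps28, Rpl37a and Rpl13 all WT MII libraries still lay below all WT GV libraries. Such a separation was seen in 72 of the 76 members, against 3452 of 10320 genes. Alternative fits called a fall in 7 of 26 for Rpl37a, 3 of 27 for Rplp2 and 1 of 26 for Rps28. Rps15a, a small-subunit protein, stood in WT at 10.7, 6.76 and 11.5 FPKM at GV, at 20.1, 9.41 and 8.82 at MI, and at 8.14, 11.9 and 7.04 at MII, so that the 3 stages overlapped. Rpl22, an RNA-binding large-subunit protein, stood in WT at 4.56, 3.01 and 4.04 FPKM at MII and at 4.54, 2.49 and 3.48 at GV. For Rps15a, Rpl22 and Rpl13 the sign of the WT log2 change (-0.09, 0.12 and -0.20) turned under another scaling or without 1 library, so no direction is read from them. In KO, Rpl13, a large-subunit protein, fell (log2 change -1.92, SE 0.32, adjusted p = 0.000108), from levels at GV of 14.8, 41.2 and 10.7 FPKM, and Rpl37a fell as well (-1.35, adjusted p = 0.0028), by limma. The other 5, leaving out Rps2, did not pass the test in KO either.

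Rps2, a small-subunit protein at the mRNA entry channel, was the 1 member that rose in KO from GV to MII. It stood in KO at 106, 235 and 138 FPKM at GV, at 239, 282 and 261 at MI, and at 182, 271 and 427 at MII. In WT oocytes it was at 103, 60.7 and 96.6 FPKM at GV, at 156, 180.0 and 143 at MI, and at 68.8, 79.5 and 55.7 at MII. The KO GV and KO MII libraries overlapped, and the log2 change was 0.86 (SE 0.31, adjusted p = 0.0368). This call was lost when KO GV replicate 1 or 3 or KO MII replicate 2 or 3 was left out, when only the groups compared were fitted and with no filter on low values. At MII the 3 KO libraries lay above the 3 WT libraries, a difference held in all 27 alternative fits (log2 change 2.02, SE 0.31, adjusted p = 9.78e-05).

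At GV, many ribosomal protein mRNAs were higher in KO oocytes than in WT oocytes, and the number of calls changed with the libraries used. Of the 76 members, 23 were higher and none lower, against 13.3% and 7.49% of all genes, and the median log2 change was 0.70 for members and 0.17 for all genes. Of the 23, Rpl22l1 (at most 0.954 FPKM in WT) and Rps15 (over 1 FPKM in WT only in WT GV replicates 1 and 3) entered the test through KO libraries. Their calls are given as a description. In 27 members all KO libraries lay above all WT libraries, against 17.8% of all genes, and in 1, Rpl6, all lay below, against 13.3%. Without KO GV replicate 2 the count was 6 higher and 1 lower, with a median of 0.30. It was 8 higher without WT GV replicate 2, 9 without WT GV replicate 3 and 42 without KO GV replicate 3. When only the GV libraries were fitted, 1 member was called, and median-of-ratios scaling, which moved the median of all genes to -0.05, left 15 higher and 1 lower with a median of 0.40. Calls for 6 members held without any 1 library: Rps23, Rps24, Rps20, Rpl10, Rpl12 and Rpl8.

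Rps23, a small-subunit protein of the decoding centre, differed most at GV on the log2(FPKM + 1) scale and was the 1 member whose call held in every alternative fit. It stood at 43.4, 79.8 and 25.2 FPKM in KO GV and at 13.3, 7.21 and 7.10 FPKM in WT GV. All KO libraries lay above all WT libraries, and the lowest KO value was 25.2 FPKM against a highest WT value of 13.3 FPKM. The means were 49.5 ± 27.8 and 9.22 ± 3.57 FPKM (SD, n = 3 each; log2 change 2.21, SE 0.35, adjusted p = 0.000404, limma), and the log2 change was 1.79 without KO GV replicate 2 (adjusted p = 0.00149). At MI it stood at 8.28, 8.03 and 15.7 FPKM in KO and 4.86, 7.38 and 4.33 FPKM in WT, and at MII at 1.16, 0.731 and 1.30 FPKM in KO and 0.421, 0.288 and 0.340 FPKM in WT. KO libraries lay above WT libraries at these stages too, without passing the test (adjusted p = 0.12 and 0.209). The gene lies on chromosome 13 from 90922958 to 90924950, and 37.7% of its 50-base stretches occur in 15 other genes.

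Of the other small-subunit genes, Rps12 was among the largest changes, at 19.4, 64.8 and 5.71 FPKM in KO GV and 7.40, 4.36 and 4.23 FPKM in WT GV (log2 change 1.75), and its groups overlapped. Its ratio of means was 5.62, against 5.37 for Rps23, and its call was lost without KO GV replicate 2 (log2 change 0.92, adjusted p = 0.158), KO GV replicate 1 or WT GV replicate 2 or 3, when only the GV libraries were fitted and with no filter. Rps24 stood at 14.7, 41.1 and 12.6 FPKM in KO GV and 7.88, 5.24 and 7.57 FPKM in WT GV (log2 change 1.41, SE 0.32, adjusted p = 0.0056). Rps20, part of the head of the small subunit, stood at 12.7, 36.4 and 7.81 FPKM in KO GV and 5.48, 3.66 and 5.44 FPKM in WT GV (log2 change 1.51, SE 0.38, adjusted p = 0.0106). In both genes KO GV replicate 2 was the highest and the groups did not overlap, and without it the log2 changes were 0.91 for Rps24 (adjusted p = 0.0186) and 0.92 for Rps20 (adjusted p = 0.0476). Few of their 50-base stretches are shared with other genes (4.86% for Rps24 and 7.26% for Rps20). Among large-subunit genes, Rpl8 stood at 4.45, 8.87 and 3.78 FPKM in KO GV and 2.52, 1.77 and 1.88 FPKM in WT GV (log2 change 1.07, SE 0.23, adjusted p = 0.00445, 4.80% shared), and the log2 change was 0.75 without KO GV replicate 2 (adjusted p = 0.0195). Rpl27a stood at 10.01, 29.6 and 5.94 FPKM in KO GV and 5.72, 3.69 and 4.46 FPKM in WT GV (log2 change 1.25, SE 0.39, adjusted p = 0.0302), with KO replicate 3 close to WT replicate 1. Its call was lost without KO GV replicate 2 (log2 change 0.65, adjusted p = 0.175), without WT GV replicate 2 or 3, when only the GV libraries were fitted, with no filter and with a pseudocount of 0.1.

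**Figure D3:**
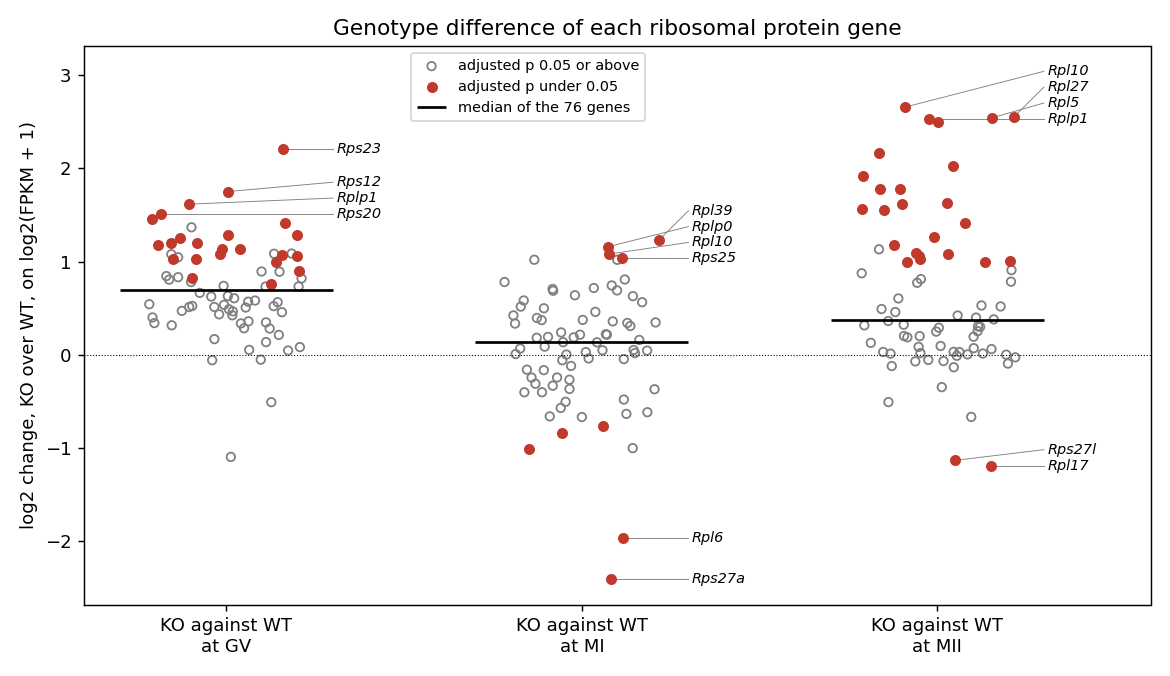
Log2 change, KO over WT, on the log2(FPKM + 1) scale, of the 76 tested ribosomal protein genes at GV, MI and MII. Filled points have an adjusted p under 0.05 (23, 9 and 26 genes), open points do not, bars are the medians of 0.70, 0.13 and 0.37, and the most changed called genes are named.

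At MI, members moved in both directions. In KO, 4 were higher and 5 lower, against 3.63% and 13.7% of all genes, and the median log2 change was 0.13 for members and -0.13 for all genes. The libraries did not overlap in 15 members with KO above WT and in 12 with KO below, against 11.2% and 24.5% of all genes. The count of 9 became 17 without KO GV replicate 2, 3 without WT MI replicate 2, and 4 when either KO MI replicate 1 or KO MI replicate 3 was dropped. Median-of-ratios scaling gave 10 higher and 5 lower members, and the sign of the median turned to -0.02 without WT MI replicate 3. The calls for Rps27a and Rpl6 held in every alternative fit. Rps27a averaged 5.91 ± 2.28 FPKM in KO and 36.4 ± 16.1 FPKM in WT at MI (SD, n = 3 each), with a log2 change of -2.41 (SE 0.39, adjusted p = 0.000336). Rpl6 averaged 2.00 ± 0.410 FPKM in KO and 13.5 ± 11.7 FPKM in WT, with WT MI replicate 2 at 26.8 FPKM and a log2 change of -1.97 (SE 0.40, adjusted p = 0.0022). WT MI replicate 2 also held a summed level of blood markers of 27.6 FPKM, nearly all from Lyz2, and its part in this result was not tested, but Rpl6 and Rps27a stayed past the threshold without that library.

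The 3 other members lower in KO at MI were Rpl21, Rpl3 and Rpl7l1. Rpl7l1, a paralog of Rpl7 that acts in ribosome assembly, crossed over between the stages. It stood at 12.3, 11.7 and 8.16 FPKM in KO GV, 3.63, 4.53 and 4.41 in KO MI and 3.40, 4.22 and 4.48 in KO MII. In WT oocytes it was at 9.24, 7.51 and 7.39 FPKM at GV, at 6.21, 11.8 and 7.64 at MI, and at 0.842, 1.73 and 1.60 at MII. KO libraries thus lay below all WT libraries at MI and above all of them at MII, with log2 changes of -0.84 (SE 0.24, adjusted p = 0.0218) and 1.09 (SE 0.24, adjusted p = 0.00237).

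The members higher in KO at MI were Rpl39, Rplp0, Rpl10 and Rps25. Rpl39, a small protein of the exit tunnel, stood at 7.88, 7.55 and 12.1 FPKM in KO MI and 3.84, 3.68 and 2.37 FPKM in WT MI (log2 change 1.24, SE 0.36, adjusted p = 0.0219). Rpl10 and Rps25 were the 2 members called higher in KO at all 3 stages. Rps25, a small-subunit protein needed for some internal ribosome entry sites, averaged 48.5 ± 25.9 FPKM in KO and 20.3 ± 6.18 FPKM in WT at GV, 36.0 ± 8.28 in KO and 16.9 ± 2.65 in WT at MI, and 3.43 ± 1.51 in KO and 1.12 ± 0.207 in WT at MII (SD, n = 3 each). Its log2 changes were 1.14, 1.04 and 1.01, and its ratios of means were 2.39, 2.13 and 3.07, at GV, MI and MII. The call held in 22, 18 and 21 of 27 alternative fits, and at GV it was lost without KO GV replicate 2 (log2 change 0.74, adjusted p = 0.133).

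At MII, many ribosomal protein mRNAs were higher in KO. In KO, 24 members were higher and 2 lower, against 14.9% and 13.8% of all genes, and the median log2 change was 0.37 for members and 0.01 for all genes. In 39 members all KO libraries lay above all WT libraries, and in 4 all lay below, against 25.8% and 24.8% of all genes. In untransformed FPKM the median member was 2.97-fold higher in KO. That ratio rests on low levels, as 48 of the 84 members had a mean below 1 FPKM in WT MII. No such ratio was computed for all genes. The count was 17 without KO MII replicate 3, 14 with a pseudocount of 5 and 17 with no filter on low values. Calls for 12 members held in every fit: Rpl10, Rpl27, Rpl5, Rplp1, Rpl32, Rpl11, Rps2, Rplp0, Rpl41, Rps3a1, Rpl7l1 and, lower in KO, Rpl17.

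Rpl10, which joins the large subunit last and completes its tRNA sites, changed most on the log2(FPKM + 1) scale. In ratios of mean FPKM at MII it came behind several members whose levels were lower. Among them were Rpl27 (10.4-fold higher in KO) and Rpsa (10.2-fold higher in KO). Ratios were larger still for Rpl18 (means of 1.29 FPKM in KO and 0.0802 in WT) and Rps29 (2.18 in KO and 0.145 in WT), both near the floor in WT. It stood in KO at 128, 266 and 97.7 FPKM at GV, at 174, 167 and 203 at MI, and at 74.8, 50.8 and 94.3 at MII. In WT it stood at 64.5, 54.1 and 63.6 FPKM at GV, at 95.1, 83.1 and 77.2 at MI, and at 11.9, 10.5 and 9.05 at MII. KO lay above WT at each stage, and at MII the lowest KO library (50.8 FPKM) was far above the highest WT library (11.9 FPKM). The log2 changes were 1.29 at GV (SE 0.30, adjusted p = 0.00694; 0.87 without KO GV replicate 2, adjusted p = 0.0311), 1.08 at MI (SE 0.30, adjusted p = 0.0174) and 2.66 at MII (SE 0.30, adjusted p = 3.45e-06). Rpl10 lies on chromosome X from 74270812 to 74273135, and 33.5% of its 50-base stretches occur in other genes.

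Rpl5 and Rpl11 bind the 5S rRNA before it enters the large subunit and, in somatic cells, hold back MDM2 when assembly fails. Rpl5 stood in KO at 141, 160.2 and 143 FPKM at GV, at 153, 143 and 155 at MI, and at 57.0, 27.6 and 44.7 at MII. The WT libraries stood at 124, 99.3 and 128 FPKM at GV, at 95.2, 90.6 and 138 at MI, and at 5.75, 11.1 and 3.69 at MII. The genotypes were less than 1.5-fold apart in their means at GV and at MI and 6.30-fold apart at MII (log2 change 2.54, SE 0.31, adjusted p = 7.3e-06). Rpl11 stood at 29.3, 20.2 and 46.5 FPKM in KO MII and 5.45, 6.99 and 5.54 FPKM in WT MII (log2 change 2.17, SE 0.37, adjusted p = 0.000254), without overlap. Of the 50-base stretches, 48.9% in Rpl5 are shared with 16 other genes, and 17.7% in Rpl11 with 10.

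Rpl27 and Rpl32, both of the large subunit, behaved likewise. Rpl27 stood at 9.52, 9.10 and 17.97 FPKM in KO MII and 1.55, 1.19 and 0.801 FPKM in WT MII (log2 change 2.55, SE 0.34, adjusted p = 2.24e-05). Rpl32 stood at 148, 113 and 227 FPKM in KO MII and 29.0, 35.0 and 19.0 FPKM in WT MII (log2 change 2.50, SE 0.33, adjusted p = 1.85e-05). In each gene the lowest KO library was over 3 times the highest WT library. The 2 genes that were lower in KO at MII were both among the highest members. Rpl17 stood at 163, 128 and 119.6 FPKM in KO MII and 229, 442 and 295 FPKM in WT MII (log2 change -1.19, SE 0.26, adjusted p = 0.00214). Rps27l, a paralog of Rps27 and a p53 target in somatic cells, stood at 94.4, 77.2 and 161 FPKM in KO MII and 164, 342 and 227 FPKM in WT MII, with KO replicate 3 just under WT replicate 1 (log2 change -1.14, SE 0.38, adjusted p = 0.0306), and leaving out any of WT MII replicates 2 and 3 and KO MII replicates 1 and 2 ended this call.

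**Figure D4:**
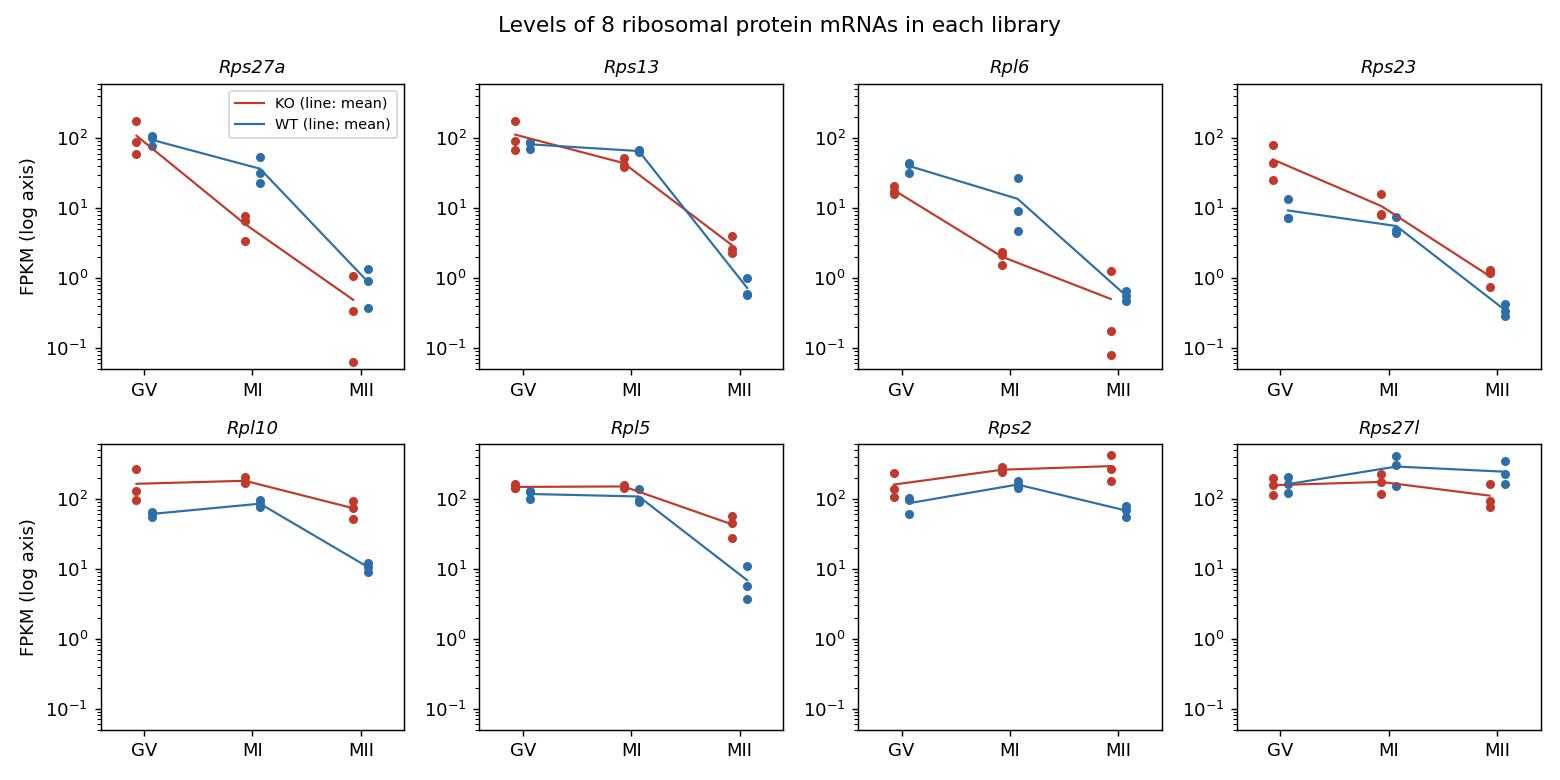
Levels of 8 ribosomal protein mRNAs in FPKM on a log axis, at GV, MI and MII, with a point per library and a line through the group means (red KO, blue WT). Rpl5 and Rpl10 end higher in KO than in WT at MII, Rps27a and Rpl6 are lower in KO at MI, and in WT Rps2 falls from MI to MII while Rps27l passed no test between stages.

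The stalk genes differed from each other. Rplp0, the base of the stalk, stood in KO at 321, 323 and 423 FPKM at GV, at 369, 326 and 149.6 at MI, and at 149, 90.9 and 115 at MII. WT libraries stood at 280.4, 264 and 296 FPKM at GV, at 93.7, 199 and 85.8 at MI, and at 35.4, 27.8 and 27.0 at MII. It was higher in KO at MII without overlap (log2 change 1.92, SE 0.33, adjusted p = 0.00028), and at MI with overlap (1.16, SE 0.33, adjusted p = 0.0213). Rplp1 stood at 294, 1171 and 186 FPKM in KO GV and 143, 116 and 132 FPKM in WT GV, with KO replicate 2 far above the rest (log2 change 1.62, SE 0.48, adjusted p = 0.0255). Without that library the log2 change was 0.84 (adjusted p = 0.135), and the call was also lost without WT GV replicate 2 or 3, when only the GV libraries were fitted and with no filter. At MII it stood at 147, 101 and 254 FPKM in KO and 20.9, 31.4 and 26.9 FPKM in WT (log2 change 2.53, SE 0.48, adjusted p = 0.000615). Rplp2 did not pass the test at any stage, with 26.5, 20.9 and 44.9 FPKM in KO MII and 16.1, 21.0 and 13.7 FPKM in WT MII. Rpsa, the small-subunit protein first known as a laminin receptor, stood at 4.69, 1.83 and 5.94 FPKM in KO MII and 0.337, 0.518 and 0.369 FPKM in WT MII (log2 change 1.78, SE 0.47, adjusted p = 0.00827).

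The stage changes of the genotypes were then compared as an interaction. In the change from GV to MII, 3 members fell less in KO (Rpl5, Rpl27 and Rpl32), against 3.88% of all genes with a positive difference, and Rpl13 fell more (1.73% of all genes with a negative one). Both shares of the members were near those of all genes. The median difference was -0.19 for members and -0.17 for all genes, and its sign for members turned with a pseudocount of 0.1, with median-of-ratios scaling, with voom on recovered reads and without KO GV replicate 2. In the change from MI to MII, the difference was positive in 8 members (Rps27a, Rpl5, Rps9, Rpl7l1, Rpl32, Rpl27, Rps13 and Rpl10), against 4.33% of all genes, and negative in Rpl17 (0.0291% of all genes). For Rpl5 the difference was 2.20 from GV to MII (SE 0.43, adjusted p = 0.00568) and 2.04 from MI to MII (SE 0.43, adjusted p = 0.0113). Those 2 results and that of Rpl7l1 from MI to MII (1.93, SE 0.34, adjusted p = 0.00325) held in every alternative fit, and the others did not. With the replicate number as a block, 4 of the 9 calls from MI to MII were left (Rpl5, Rpl7l1, Rpl32 and Rps13). For Rps27a and Rps13, all KO libraries lay below all WT libraries at MI.

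Paralogs of members were compared with their partners. Rpl39l, an autosomal paralog of the X-linked Rpl39 known from testis, shared no 50-base stretch with another gene and stood above Rpl39 in WT GV, at 18.7, 10.4 and 18.1 FPKM against 12.6, 3.66 and 9.12 FPKM, with overlapping ranges. At MII, Rpl39l stood at 4.05, 1.26 and 5.08 FPKM in KO and 0.785, 1.39 and 1.04 FPKM in WT (log2 change 1.00, SE 0.34, adjusted p = 0.0348, 18 of 27 alternative fits). Rpl10l, the intronless testis paralog of Rpl10, did not exceed 0.406 FPKM. Rpl22l1 reached 2.86 FPKM at most, below its partner Rpl22 in the means of all 6 groups. Rps27l exceeded Rps27 by over 10-fold in the mean of WT GV, at 162 ± 40.5 against 12.6 ± 3.82 FPKM (SD, n = 3), and Rps27 fell to 0, 0 and 0.0590 FPKM in WT MII. Rps27rt, a retrogene, shares 91.1% of its 50-base stretches with other genes, and its values were near those of Rps27 in WT GV (16.4, 8.32 and 14.5 against 16.7, 9.18 and 11.9 FPKM), so these 2 cannot be told apart.

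Subunits and partners named outside the rule gave mixed results. Fau, which encodes a small-subunit protein fused to a ubiquitin-like protein, averaged 248 ± 193 FPKM in KO GV, 87.1 ± 27.1 in KO MI and 11.8 ± 3.53 in KO MII, and 112 ± 16.7 in WT GV, 103.6 ± 16.3 in WT MI and 12.2 ± 4.05 in WT MII (SD, n = 3 each). It fell from GV to MII in both genotypes and did not pass the test between them at any stage. Rack1, a scaffold on the small subunit, did not fall in WT, at 8.34 ± 1.46 FPKM at MII and 5.26 ± 0.682 FPKM at GV. It was higher in KO at GV, at 11.9 ± 4.70 FPKM (log2 change 0.99, SE 0.30, adjusted p = 0.0294, limma). Its KO GV libraries stood at 10.2, 17.2 and 8.29 FPKM and its WT GV libraries at 6.04, 4.94 and 4.79 FPKM. KO GV replicate 2 was the highest, and the change without it is not given. Btf3, the partner of Naca in the nascent-chain complex, was lower in KO at GV (log2 change -1.03, SE 0.27, adjusted p = 0.0141) and at MI (-0.87, SE 0.27, adjusted p = 0.0320), by limma. Naca, which acts at the exit tunnel, was higher in KO at MII, at 12.2 ± 4.26 against 5.01 ± 0.825 FPKM in WT (log2 change 1.09, SE 0.26, adjusted p = 0.00357).

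Other mRNAs that begin with a TOP tract were taken as a list of 17 genes for translation factors and partners. In WT from GV to MII, 9 fell and 1 rose (28.8% and 28.9% of all genes). At GV, 4 were higher in KO and none lower (13.3% and 7.49% of all genes), the median log2 change was 0.38, and 16 of the 17 had a positive change, against 6296 of 10320 genes. In all 4 (Eef2, Nap1l1, Pabpc1 and Eef1g) KO GV replicate 2 was the highest KO library. Eef2 stood at 20.3, 48.5 and 6.48 FPKM in KO GV and 7.11, 6.26 and 4.82 FPKM in WT GV, with overlap. Changes of this list without KO GV replicate 2 are not given, and its part in them was not tested. At MII, 3 were higher in KO and none lower (14.9% and 13.8% of all genes), with a median of 0.26, and the higher share is near that of all genes. Eef1a1, the elongation factor that carries tRNA to the ribosome, averaged 50.9 ± 13.9 FPKM in KO and 35.4 ± 12.3 FPKM in WT at MII, after 927 ± 246 FPKM in KO and 853 ± 237 FPKM in WT at GV. Pabpc1, the cytoplasmic poly(A)-binding protein, averaged 5.22 ± 4.01 FPKM in KO and 0.168 ± 0.0527 FPKM in WT at GV, 7.38 ± 0.714 in KO and 0.827 ± 0.595 in WT at MI, and 4.65 ± 2.67 in KO and 0.372 ± 0.129 in WT at MII (SD, n = 3 each). Only 2 WT libraries reached 1 FPKM, so it entered the test through the KO libraries, and its calls, counted above, are given as a description. Eef1g, among the 4 higher at GV, reached 1 FPKM in WT only in WT GV replicate 1 (1.01 FPKM), so its call is a description too. Of 10 tested regulators of TOP mRNAs and mTOR, 2 were higher and 1 lower in KO at GV (13.3% and 7.49% of all genes). At MI none was higher and 2 were lower (3.63% and 13.7%), and at MII 1 was higher and 1 lower (14.9% and 13.8%). Rps6kb1, an S6 kinase, was lower in KO at all 3 stages (log2 changes -0.63, -0.76 and -1.06). Rps6kb2, another S6 kinase, passed no test at GV or MI. At MII it was higher in KO, with means of 1.14 FPKM in KO and 0.298 in WT (log2 change 0.72, SE 0.25, adjusted p = 0.0361, limma). Of 5 tested chaperones dedicated to single ribosomal proteins, none passed the test between the genotypes at GV or MI. Of all genes, 13.3% were higher and 7.49% lower at GV, and 3.63% and 13.7% at MI. At MII 1 was lower in KO and none higher (13.8% and 14.9% of all genes): Bccip (log2 change -0.99, SE 0.21, adjusted p = 0.00163). No result about this list is read from that count.

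The mitochondrial ribosomal proteins, which form a separate ribosome, were taken as a comparison list. Of 70 tested genes, 55 fell and 2 rose in WT from GV to MII (28.8% and 28.9% of all genes), with a median of -1.70. In KO against WT, 5 were higher and 8 lower at GV (13.3% and 7.49% of all genes) with a median of -0.07. At MI 1 was higher and 23 lower (3.63% and 13.7%) with a median of -0.41, and at MII 15 were higher and 4 lower (14.9% and 13.8%) with a median of 0.03. The corresponding medians of the cytosolic members were 0.70, 0.13 and 0.37. These are medians over lists, and the difference between the lists was not tested.

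Finally, the counts were set beside the sequence features that did not choose the members. Of the 58 tested members with a matched promoter, those with a pyrimidine run fell in WT from GV to MII in 39 of 45 cases and those without in 11 of 13, with median log2 changes of -2.36 and -2.24. At MII, 12 of the 45 with a run and 7 of the 13 without were higher in KO, with median log2 changes of 0.40 and 1.08. At GV the order was the other way, with 15 of the 45 and 3 of the 13 higher in KO and medians of 0.74 and 0.57. The difference between the 2 sets was not tested. Of the 15 tested members with under 10% of their 50-base stretches shared with other genes, 13 fell in WT from GV to MII, 6 were higher in KO at MII and 4 at GV, and of the 61 others 55 fell, 18 were higher in KO at MII and 19 at GV. Of all genes, 28.8% fell in WT from GV to MII, and 14.9% were higher in KO at MII and 13.3% at GV. Entries named as ribosomal protein pseudogenes, 170 in the table, summed to 837 to 1688 FPKM in KO GV, 681 to 981 in WT GV, 129 to 200.2 in KO MII and 152 to 231 in WT MII, and whether reads of members are counted in them was not tested.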

How the data were processed

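RNA was measured in 18 libraries, 3 per group of genotype and stage. The authors deposited FPKM for 27874 genes, and the submitters' processing notes list the build mm10 and the tool DESeq2 1.38.3, with no step for either. No aligner, counter or strand setting is given in the sources used here. Gene identifiers were matched to GENCODE vM21 (27829 found), and coordinates are those of that annotation on mm10. FPKM times exon length came out as whole reads, within 0.1 read in all libraries, for 94.1% of genes and 74 of the 84 members. Reads carry no molecular identifiers, and depth speaks for counting error alone.

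A single linear model of the 6 group means, with a variance trend and 12 residual degrees of freedom, was estimated by limma 3.58.1 (R 4.3.3) from log2(FPKM + 1). It covered the 10320 genes that reached 1 FPKM in 3 or more libraries. Changes on this scale understate those of low genes. P-values are two-sided and adjusted by Benjamini-Hochberg within each of 11 comparisons. Tables and figures used Python 3.11.15, pandas 2.3.3 and matplotlib 3.10.9. In simulated data for KO against WT at MII with 10320 genes, 200 were changed, drawn from genes with a mean log2(FPKM + 1) over 2. The test found 44% of genes changed by 1 on the log2 scale and 89% of those changed by 2, with 6.34% of calls false. In the data 1537 genes were called higher and 1419 lower, and the median tested member stood at 0.792 FPKM in WT MII. These rates therefore need not hold for the members.

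The members, the gene lists and the rule for named genes were chosen with earlier results of these data known. That rule took the largest called changes without overlap at a mean of 5 FPKM or more, and the highest members. It also took members without a called fall in WT, stalk genes, paralogs and untested members. Genes named outside that rule, such as Rps12 and Rps25, were chosen after their values were seen. The model was repeated without each library, with the replicate number as a block, on the compared groups alone, with pseudocounts of 0.1 and 5, with other filters (none, or 5 FPKM), with TPM or median-of-ratios scaling and with voom on the recovered reads. Same-numbered libraries deviated together (all 3 correlations over 0.1) in 1 of 15 pairs of groups, KO MI with KO MII (0.237, 0.264 and 0.420), with no source for a pairing in the labels.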

Additional observations from a re-analysis of the deposited data

Results flagged for a closer look

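13 differences between the genotypes in the change over stages passed the test of the difference itself (limma's interaction term, adjusted p under 0.05 over 10320 genes). From GV to MII the log2 change in KO minus that in WT was 2.20 for Rpl5, 1.93 for Rpl27, 1.68 for Rpl32 and -1.71 for Rpl13. From MI to MII it was 2.06 for Rps27a, 2.04 for Rpl5, 1.99 for Rps9, 1.93 for Rpl7l1, 1.81 for Rpl32, 1.77 for Rpl27, 1.75 for Rps13, 1.58 for Rpl10 and -1.37 for Rpl17. Of all genes, 3.88% had a positive and 1.73% a negative difference from GV to MII, near the members' shares. From MI to MII these were 4.33% and 0.0291%. Rpl5 in both changes and Rpl7l1 held in every alternative fit, and the others were lost in some. From MI to MII, Rps9 was lost in 17 of 27 fits, Rpl10 in 16 of 27 and Rpl17 in 16 of 26. Rpl13 stood at 14.8, 41.2 and 10.7 FPKM in KO GV and 8.09, 7.38 and 7.39 FPKM in WT GV, but at 4.24, 3.50 and 5.16 FPKM in KO MII and 5.94, 6.65 and 6.90 FPKM in WT MII, so the order of the genotypes turned without overlap at either stage.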

How the results depend on the processing

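Counts of called members stayed within 1.5 times in 236 of 297 alternatives. KO against WT gave 23 calls at GV, 15 with a pseudocount of 0.1, 9 with no filter and 1 when only the groups compared were fitted (7 to 42 leaving out 1 library). It gave 9 at MI, 4 with no filter and 15 with median-of-ratios scaling (3 to 17 leaving out 1 library), and 26 at MII, 14 with a pseudocount of 5 and 17 with no filter (17 to 32). WT MI against GV gave 9 calls, 4 with a pseudocount of 0.1, 3 with no filter, 24 with median-of-ratios scaling, 3 with TPM scaling and 14 in the fit of only those groups (2 to 23; 3 without WT GV replicate 1 or 3, 2 without WT MI replicate 1, 23 without KO GV replicate 2, 16 without KO GV replicate 3 and 5 without WT MII replicate 3). KO MI against GV gave 35 calls and 13 in the fit of only those groups (26 to 43). Leaving out 1 library gave 59 to 69 calls for WT MII against MI, 64 to 70 for WT MII against GV, 36 to 58 for KO MII against MI and 61 to 73 for KO MII against GV.

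The genotype difference in the change from GV to MII had 4 calls, 8 and 2 with pseudocounts of 0.1 and 5, 1 with no filter, 7 with the filter at 5 FPKM, 11 with median-of-ratios scaling and 2 with only those groups (1 to 15, with a move of over 1.5 times for each GV and MII library other than KO MII replicate 2). From MI to MII it had 9 calls, 3 with a pseudocount of 5, 3 with no filter, 15 with only those groups and 4 with the replicate block (2 to 17, with a move of over 1.5 times without WT GV replicate 1, KO GV replicate 2, and each MI and MII library other than WT MI replicate 3 and KO MII replicate 2). The replicate block moved no other count by over 1.5 times. Replicate numbers did not pair the libraries in 14 of 15 pairs of groups, the exception being KO MI with KO MII, where the block gave 43 calls for MII against MI and the fit without it 45: deviations of same-numbered libraries correlated at -0.52 to 0.42 over 45 pairs, 15 of them over 0.1. Median-of-ratios scaling shifted the median of all genes in WT MI against GV to -0.04, against 0.24 as deposited.

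Of 2301 values of named genes under alternatives, 1873 kept direction and side of the threshold, 412 lost the call, 11 gained it and 5 turned: WT MII against GV for Rpl13 with TPM scaling (0.0216), Rpl22 without WT GV replicate 2 (-0.0465, range -0.0465 to 0.287 leaving out 1 library) and Rps15a with TPM scaling (0.152), without WT GV replicate 3 (0.0416) and without WT MII replicate 3 (0.0574, range -0.301 to 0.0574). The cause was not tested.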
